A study of Mus musculus with 22 samples.

Results

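The 10 receptor genes followed here belong to the tumour necrosis factor (TNF) receptor superfamily and were compared across 3 kinds of transferred mouse CD4+ T cell: Tnfrsf9, Tnfrsf18, Tnfrsf4, Tnfrsf1b, Tnfrsf1a, Tnfrsf8, Tnfrsf25, Tnfrsf13b, Cd27 and Fas. They were chosen by name, as receptors known on T cells, and are 10 of the 55011 genes in the count table. All 10 passed the filter on low counts that left 15462 genes for testing. That Tnfrsf9 and Tnfsf8, the ligand of CD30, differ between these groups was already known from these data when the genes were chosen.

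RNA was sequenced with Smart-seq from sorted lymph node cells of scurfy mice, a strain without working Foxp3 that dies of autoimmune disease. The FOXP3 group was scurfy CD4+ T cells given a vector with human FOXP3 and LNGFR, a truncated nerve growth factor receptor used as a surface reporter. The LNGFR group was scurfy CD4+ T cells given the reporter alone, and the WT Treg group was CD4+CD25+ regulatory T cells (Treg) with the CD45.1 allele. Recipients of all 3 groups were scurfy mice that got cyclophosphamide (50 mg/kg) at 10 days of age, the cells on day 14 and then human IL-2 (1000 IU per g, daily for 5 days, then weekly). On day 50 the transferred cells, 1000 per library, were sorted by LNGFR or CD45.1. The strain is given as C57BL/6 in all libraries, and the genotype entry reads scurfy in all 22, WT Treg libraries included. WT Treg therefore differ from the other groups in donor, vector and sort marker together, and these cannot be told apart.

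Titles carry a code (F1, F2, F5, N2 and N3 for FOXP3, G1, G2 and G3 for LNGFR, E2, G4 and L1 for WT Treg), with 2 libraries per code. The 2 were summed and a code was counted as 1 replicate. All FOXP3 codes carry the letter F or N and all LNGFR codes the letter G, as does G4 of WT Treg. What the letters stand for is not given. In FOXP3 against LNGFR anything tied to them cannot be told apart from the vector. Nothing in the labels ties a code to an animal, and the p-values below therefore measure only the spread between these samples, which may be technical. The libraries held 332570 to 5453375 counts each. Both E2 libraries and the second G1 library were shallow, and 28.3% to 55.7% of their counts fell on Gm10800 and its repeat-derived relatives, compared with 2.09% to 4.27% elsewhere. Mouse Foxp3, the check of the labels, stood at 704 to 1630 CPM (counts per 1e+06 of the TMM-scaled library) in WT Treg, 162 to 313 in FOXP3 and 42.7 to 143 in LNGFR. By edgeR mouse Foxp3 was called higher in WT Treg than in LNGFR (adjusted p = 0.00191). It was not called in FOXP3 against LNGFR (log2 fold change 1.40, adjusted p = 0.210). The table has no row for the human transgene, and whether its reads were counted on the mouse gene was not tested. The sum of 8 T-cell markers was 2388 to 8201 CPM over all codes, and that of Cd8a and Cd8b1 at most 34.0 CPM. The sum of 10 B-cell markers was 5478 CPM in N3 and 1578 in G1, against 145 to 614 in the other 9 codes.

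TNF receptor superfamily proteins are cell-surface receptors that bind trimeric ligands of the TNF family. One set of them, such as 4-1BB, OX40, GITR, CD27, CD30 and TNFR2, has no death domain, binds TRAF adaptor proteins and signals to NF-kB as a costimulatory input to T cells. Another set, TNFR1, DR3 and Fas, carries a cytoplasmic death domain that recruits adaptors such as TRADD or FADD and can lead to NF-kB activation or to cell death. Treg are known for high surface levels of several costimulatory members, and TNFR2, OX40, GITR and DR3 are known routes by which Treg expand.

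The genes lie on 4 chromosomes of the GRCm38 genome (GENCODE M21). On chromosome 4 are Tnfrsf1b (145213463 to 145246870), Tnfrsf8 (145267137 to 145315164), Tnfrsf9 (150914562 to 150946102), Tnfrsf25 (152115934 to 152120119), Tnfrsf4 (156013843 to 156016612) and Tnfrsf18 (156026164 to 156028895). Tnfrsf1b and Tnfrsf8 are 20.3 kb apart, and Tnfrsf4 and Tnfrsf18 are 9.55 kb apart with no protein-coding gene between them. Cd27 (125232622 to 125237010) and Tnfrsf1a (125349362 to 125362484) are 112 kb apart on chromosome 6. Tnfrsf13b is on chromosome 11 (61126755 to 61149372) and Fas on chromosome 19 (34290666 to 34327772).

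RefSeq (GRCm38.p6) gives 12 start sites for the 10 genes, and the 250 bases before each were searched on both strands for short motifs. The NF-kB-type motif, GGGNNNNNCC, is shown because NF-kB is the pathway these receptors signal to. It occurred in 9 of the 12 windows, both of Tnfrsf25 among them, and in 45.8% of 32851 RefSeq windows of the same length. Its fixed letters are all G or C. Windows with a match held 49.6% to 66.4% G and C and those without 42.8% to 56%, beside a median of 52.4% over all windows. The part of this content in the count of matches was not tested. The stretches below hold such matches in capitals, overlapping matches merged, with the bases on either side, each 5′ to 3′ on the gene's own strand. They are a selection: matches in both Tnfrsf25 windows and further ones of Tnfrsf8, Tnfrsf13b and Fas are not printed.
Tnfrsf9, chr4:150927947-150927975, + strand: agagcagctGGGGATTTCCCaggaggccc
Tnfrsf1b, chr4:145246923-145246956, - strand: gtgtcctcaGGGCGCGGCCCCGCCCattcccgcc
Tnfrsf13b, chr11:61126684-61126712, + strand: caggtcgaaGGGGAAAACCCaggaagtgt
Tnfrsf8, chr4:145315313-145315341, - strand: caaaacgcaGGGGAGCCCCCtgcgtgcgt
Cd27, chr6:125237092-125237120, - strand: agcagagctGGGTTTACCCCttcatagtc
Tnfrsf1a, chr6:125349498-125349525, + strand: ggcttagagGGGTTAGTCCaccggtcta
Fas, chr19:34290448-34290475, + strand: tgagtcagtGGGTTTCCCCgggagacca
Tnfrsf9 has 2 RefSeq start sites. The stretch shown lies before the downstream one, with its match from base -43, and the AP-1 motif TGANTCA followed at -15 in the same window. No NF-kB-type match was found before the upstream Tnfrsf9 start, or in the Tnfrsf4 and Tnfrsf18 windows. The whole windows before the upstream Tnfrsf9 start and the Tnfrsf1b start are printed to set a window without a match beside one with several.
Tnfrsf9, chr4:150919905-150920154, + strand: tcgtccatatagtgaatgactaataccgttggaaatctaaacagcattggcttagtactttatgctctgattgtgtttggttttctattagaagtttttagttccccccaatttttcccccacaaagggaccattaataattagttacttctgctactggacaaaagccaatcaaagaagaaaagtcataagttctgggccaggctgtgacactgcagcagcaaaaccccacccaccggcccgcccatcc
Tnfrsf1b, chr4:145246871-145247120, - strand: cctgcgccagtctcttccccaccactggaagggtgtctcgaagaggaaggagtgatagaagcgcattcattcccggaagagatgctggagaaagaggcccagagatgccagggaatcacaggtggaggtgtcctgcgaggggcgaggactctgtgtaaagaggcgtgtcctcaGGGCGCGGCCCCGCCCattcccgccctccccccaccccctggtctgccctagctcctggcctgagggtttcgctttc
TGANTCA occurred in 3 of the 12 windows (6.75% of all windows), the NFAT core GGAAAA in 5 (20.4%), the RUNX core TGTGGT in 1 (14.0%), and the forkhead core TGTTTAC (3.17%) and TATAAA (12.4%) in none. A match is a run of letters and not a measured binding site, and a missing match says only that the letters are not in that window.

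Of the 10 receptors, Tnfrsf9 was the 1 that passed the edgeR test with all libraries, and it was higher than in LNGFR cells both in FOXP3 and in WT Treg. Tnfrsf9 encodes 4-1BB (CD137), a receptor induced by T-cell activation. In FOXP3 it stood at 232 CPM in F1, 161 in F2, 195 in F5, 136 in N2 and 87.3 in N3. The LNGFR codes G1, G2 and G3 held 9.75, 18.2 and 23.1 CPM. The WT Treg codes E2, G4 and L1 held 69.8, 346 and 321 CPM. The lowest FOXP3 and WT Treg codes were above the highest LNGFR code, while FOXP3 and WT Treg overlapped because E2 was low. Against LNGFR, the log2 fold change in FOXP3 was 3.23 ± 0.55 (SE, edgeR fit), a fold of 9.40 (95% interval of the log2 value 2.05 to 4.42, edgeR quasi-likelihood adjusted p = 0.0187). For WT Treg against LNGFR it was 3.84 ± 0.59, a fold of 14.3 (2.57 to 5.12, adjusted p = 0.00615). FOXP3 against WT Treg gave -0.61 ± 0.46 (-1.60 to 0.39, adjusted p = 0.555), an interval that holds both a lower and a slightly higher level in FOXP3. The first 2 comparisons share the LNGFR codes, so they are not independent of each other.

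Library by library, the Tnfrsf9 difference from LNGFR was seen in all FOXP3 and WT Treg libraries but the first of E2. That library stood level with the highest LNGFR library. Its 6 LNGFR libraries held 8.28 to 29.1 CPM of library total and its 10 FOXP3 libraries 90.0 to 255 CPM. The WT Treg libraries of G4 and L1 held 330 to 365 CPM and those of E2 29.6 and 66.3 CPM. Counts behind these levels were 29, 114 and 193 reads in the LNGFR codes. They were 53, 2141 and 2407 in E2, G4 and L1, and 802 to 1974 in the FOXP3 codes. The adjusted p moved above 0.05 in 7 of 11 fits that each left out 1 code (F1, F2, F5, G1, G2, G3 or L1), with log2 values of 2.97 to 3.59 and adjusted p up to 0.256. For WT Treg against LNGFR the call was lost without G2 (adjusted p = 0.0934) and without L1 (0.0589), at log2 values of 3.93 and 3.61. Without the 3 shallow libraries the log2 values were 3.20 and 4.24 (adjusted p = 0.00203 and 0.000526).

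Tnfrsf1b encodes TNFR2, the receptor for TNF that Treg carry at high levels. FOXP3 codes held 444 CPM (F1), 575 (F2), 515 (F5), 485 (N2) and 288 (N3). LNGFR codes held 58.8 CPM (G1), 226 (G2) and 270.3 (G3), and WT Treg codes 396 (E2), 920.2 (G4) and 929 (L1). All 5 FOXP3 codes and all 3 WT Treg codes lay above all 3 LNGFR codes, though N3 and G3 were close. In the edgeR fit the log2 fold change was 1.32 ± 0.48 for FOXP3 against LNGFR (0.29 to 2.35, adjusted p = 0.324) and 2.02 ± 0.53 for WT Treg against LNGFR (0.88 to 3.15, adjusted p = 0.0988). Neither passed the edgeR threshold with all libraries. On the same libraries limma voom with quality weights called both (adjusted p = 0.0151 and 0.000568), and so did limma voom with every library as its own row (0.00926 and 0.000714). The latter fit modelled libraries of the same code as correlated. DESeq2 called the WT Treg difference (adjusted p = 0.000865) and not that of FOXP3 (0.0575). In edgeR without the 3 shallow libraries the WT Treg difference was 2.29 with an adjusted p of 0.0254, and that of FOXP3 1.28 with 0.145. Leaving out 1 code at a time gave adjusted p of 0.0356 (without E2) to 0.428 for WT Treg and 0.173 to 0.608 for FOXP3. The log2 values then ran from 1.59 to 2.40 for WT Treg and from 0.90 to 1.75 for FOXP3. Among the LNGFR codes, G1 lay far below G2 and G3. FOXP3 against WT Treg gave -0.70 ± 0.45 (-1.66 to 0.26, adjusted p = 0.480).

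Tnfrsf1a encodes TNFR1, the death-domain receptor for the same ligand, and was the rarest of the 10 in FOXP3 and WT Treg per length of transcript. It stood at 8.34 CPM in F1, 13.3 in F2, 10.6 in F5, 12.2 in N2 and 8.17 in N3, at 12.4, 19.5 and 22.7 CPM in G1, G2 and G3, and at 18.4, 21.0 and 20.4 CPM in E2, G4 and L1. FOXP3 codes were below all WT Treg codes and overlapped LNGFR only at G1. By edgeR the log2 fold change was -0.80 ± 0.26 against LNGFR (adjusted p = 0.254) and -0.93 ± 0.27 against WT Treg (adjusted p = 0.109), and WT Treg against LNGFR gave 0.13 ± 0.31 (adjusted p = 0.886). These levels rest on 14 to 189 reads per code, and the 2 N3 libraries held 61 and 14 reads, the widest gap between paired libraries outside G1.

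To set the receptors of TNF against each other, the ratio of Tnfrsf1b to Tnfrsf1a within a code, which does not depend on library scaling, was compared. Per kb of exon it was 35.9 in F1, 29.2 in F2, 32.9 in F5, 26.8 in N2 and 23.7 in N3. The LNGFR codes G1, G2 and G3 gave 3.18, 7.81 and 8.08, and the WT Treg codes E2, G4 and L1 gave 14.1, 29.6 and 30.8. The groups FOXP3 and LNGFR did not overlap, nor did WT Treg and LNGFR. The mean log2 ratio was 4.88 ± 0.24 in FOXP3 (SD, n = 5), 2.55 ± 0.76 in LNGFR (n = 3) and 4.55 ± 0.63 in WT Treg (n = 3). The FOXP3 and LNGFR means differed by 2.33 (exact two-sided permutation test, p = 0.0179, the smallest that 56 arrangements allow, 0.0536 after Benjamini-Hochberg adjustment over 3 comparisons). WT Treg and LNGFR differed by 2.00 (exact permutation p = 0.100, the smallest possible with 3 against 3, adjusted 0.150), and FOXP3 and WT Treg by 0.33 (exact permutation p = 0.357, adjusted 0.357). After adjustment none was below 0.05, and with these numbers of codes the second could not be.

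**Figure D1:**
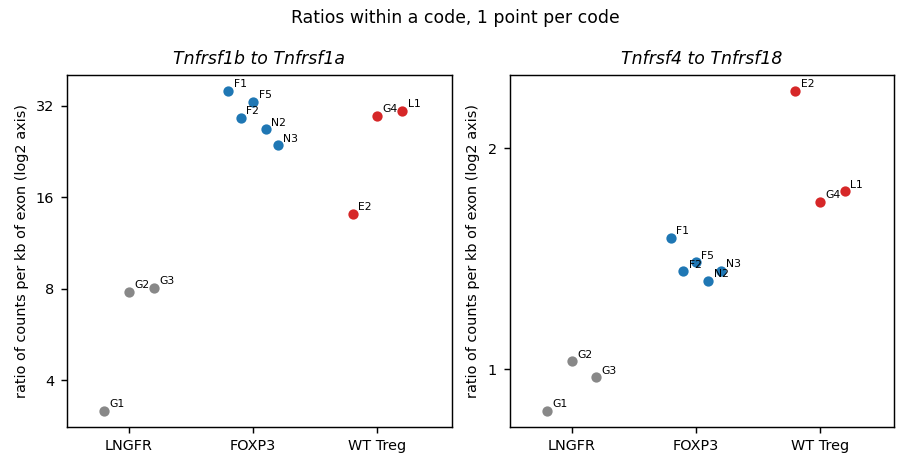
Ratios of 2 receptor genes within each code, in counts per kb of exon on a log2 axis, 1 point per code in the LNGFR, FOXP3 and WT Treg groups. At left, Tnfrsf1b to Tnfrsf1a lies at 3.18 to 8.08 in LNGFR, 23.7 to 35.9 in FOXP3 and 14.1 to 30.8 in WT Treg. At right, Tnfrsf4 to Tnfrsf18 lies at 0.878 to 1.03 in LNGFR, 1.32 to 1.51 in FOXP3 and 1.69 to 2.40 in WT Treg.

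Tnfrsf4 and Tnfrsf18, the neighbours on chromosome 4 that encode OX40 and GITR, were the most abundant of the 10 genes per length in every group, LNGFR included. Tnfrsf4 stood at 1039 CPM in F1, 731 in F2, 677 in F5, 675 in N2 and 493.2 in N3, at 895, 403 and 369 CPM in G1, G2 and G3, and at 480.4, 1014 and 966 CPM in E2, G4 and L1. Tnfrsf18 stood at 768, 601, 540.1, 571 and 404 CPM in the same FOXP3 order, at 1137, 439 and 422 CPM in G1, G2 and G3, and at 224, 669 and 617 CPM in E2, G4 and L1. The groups overlapped for both genes, with G1 the highest LNGFR code and E2 the lowest WT Treg code. The log2 fold change of FOXP3 against LNGFR was 0.38 ± 0.39 for Tnfrsf4 (-0.47 to 1.23, adjusted p = 0.761) and -0.21 ± 0.43 for Tnfrsf18 (-1.13 to 0.71, adjusted p = 0.879).

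G1 weighs on both genes. Its first library held 1210 CPM of Tnfrsf18 and 950.0 of Tnfrsf4, and its shallow second library 69.2 CPM of each. Without G1 the log2 value for Tnfrsf18 turned to 0.42 for FOXP3 and 0.22 for WT Treg against LNGFR, and that for Tnfrsf4 was 0.91 and 1.08. Neither gene passed the threshold then. G1 also held the second-highest B-cell marker sum and the highest T-cell marker sum (8201 CPM), and the part of these in its receptor levels was not tested.

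The ratio of Tnfrsf4 to Tnfrsf18 varied less between the codes of a group than either gene did. Per kb of exon it was 0.878, 1.03 and 0.975 in G1, G2 and G3. It was 1.51, 1.36, 1.40, 1.32 and 1.36 in F1, F2, F5, N2 and N3, and 2.40, 1.69 and 1.75 in E2, G4 and L1. The 3 groups did not overlap in this ratio, which was looked at after the values were seen and is given without a test. The antisense gene Gm16008 overlaps 27.2% of the exonic bases of Tnfrsf18 (414 bases), and the strand setting of the counting is not given in the sources used here. Reads from the overlap of these genes therefore cannot be told apart.

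Cd27 encodes the receptor for CD70 on naive and memory T cells, and per length its mean came after those of Tnfrsf4 and Tnfrsf18 in every group. It stood at 470.0 CPM in F1, 444 in F2, 317 in F5, 284 in N2 and 228 in N3, at 456, 329.6 and 331 in G1, G2 and G3, and at 292, 668 and 566 in E2, G4 and L1. All groups overlapped. The log2 fold change was -0.09 ± 0.35 for FOXP3 over LNGFR (adjusted p = 0.937), 0.45 ± 0.39 for WT Treg over LNGFR (adjusted p = 0.606) and -0.55 ± 0.34 for FOXP3 over WT Treg (adjusted p = 0.469). The microRNA gene Mir8113 shares 129 exonic bases (5.54%) with Cd27 on the same strand and held 0 reads in every code. That 0 does not show how reads over the shared bases were counted.

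Tnfrsf8 encodes CD30, an activation-induced receptor. It stood at 36.8 CPM in F1, 35.3 in F2, 54.1 in F5, 30.6 in N2 and 34.7 in N3, at 9.41, 17.4 and 34.3 CPM in G1, G2 and G3, and at 15.8, 38.3 and 33.3 CPM in E2, G4 and L1. LNGFR code G3 lay within the FOXP3 range, and G1 and G2 below it. Its log2 fold change was 0.89 ± 0.39 for FOXP3 against LNGFR (0.05 to 1.72, adjusted p = 0.450), 0.55 ± 0.43 for WT Treg over LNGFR (adjusted p = 0.565) and 0.34 ± 0.38 for FOXP3 over WT Treg (adjusted p = 0.703). Without G3 the first 2 values were 1.57 (adjusted p = 0.291) and 1.18 (adjusted p = 0.375), and without G1 they were 0.56 and 0.23.

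Tnfrsf25 encodes DR3, the death-domain receptor for TL1A, and stood lower in FOXP3 than in either other group without passing the edgeR test. It stood at 64.2 CPM in F1, 90.7 in F2, 56.9 in F5, 63.3 in N2 and 36.5 in N3. LNGFR held 108, 126 and 139 CPM in G1, G2 and G3, and WT Treg 121, 136 and 142 CPM in E2, G4 and L1. Every FOXP3 code lay below every code of the other groups, and LNGFR and WT Treg overlapped. The log2 fold change was -0.998 ± 0.277 (SE) against LNGFR (-1.59 to -0.40, adjusted p = 0.157) and -1.09 ± 0.28 against WT Treg (-1.69 to -0.50, adjusted p = 0.0878). WT Treg against LNGFR gave 0.10 ± 0.32 (-0.59 to 0.78, adjusted p = 0.925). DESeq2 on the same sums gave -1.06 (adjusted p = 0.00316) and -1.15 (adjusted p = 0.00114) for the 2 FOXP3 comparisons, which passed.

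Fas encodes the death receptor for Fas ligand. It stood at 23.1, 36.5, 20.9, 13.3 and 23.7 CPM in F1, F2, F5, N2 and N3, at 23.2, 20.8 and 27.2 in G1, G2 and G3, and at 22.4, 40.3 and 39.4 in E2, G4 and L1. The groups overlapped. Its log2 fold change was -0.01 ± 0.31 for FOXP3 against LNGFR (-0.68 to 0.65, adjusted p = 0.989), 0.56 ± 0.35 for WT Treg over LNGFR (adjusted p = 0.465) and -0.57 ± 0.31 for FOXP3 over WT Treg (adjusted p = 0.393).

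Tnfrsf13b encodes TACI, a receptor for BAFF and APRIL best known from B cells and also found on activated T cells. It stood at 119 CPM in F1, 121 in F2, 107 in F5, 102 in N2 and 164 in N3, at 22.2, 71.7 and 68.2 CPM in G1, G2 and G3, and at 42.1, 159.9 and 145 CPM in E2, G4 and L1. The lowest FOXP3 code, N2, was above the highest LNGFR code, G2. The log2 fold change was 1.17 ± 0.45 for FOXP3 against LNGFR (0.21 to 2.14, adjusted p = 0.357) and 1.11 ± 0.49 for WT Treg against LNGFR (0.06 to 2.16, adjusted p = 0.313), and FOXP3 against WT Treg gave 0.06 ± 0.43 (adjusted p = 0.963). N3, the highest FOXP3 code, also held the highest B-cell marker sum, 5478 CPM. Without N3 the log2 value against LNGFR was 1.04 (adjusted p = 0.376). Over all fits that left out 1 code, the value against LNGFR ran from 0.81 to 1.51 for FOXP3 and from 0.74 to 1.49 for WT Treg. Among the LNGFR codes, G1 lay far below G2 and G3. The part of B-cell RNA in the Tnfrsf13b levels was not tested. In bulk samples fewer expressing cells and less RNA per cell cannot be told apart, here as for every gene.

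**Figure D2:**
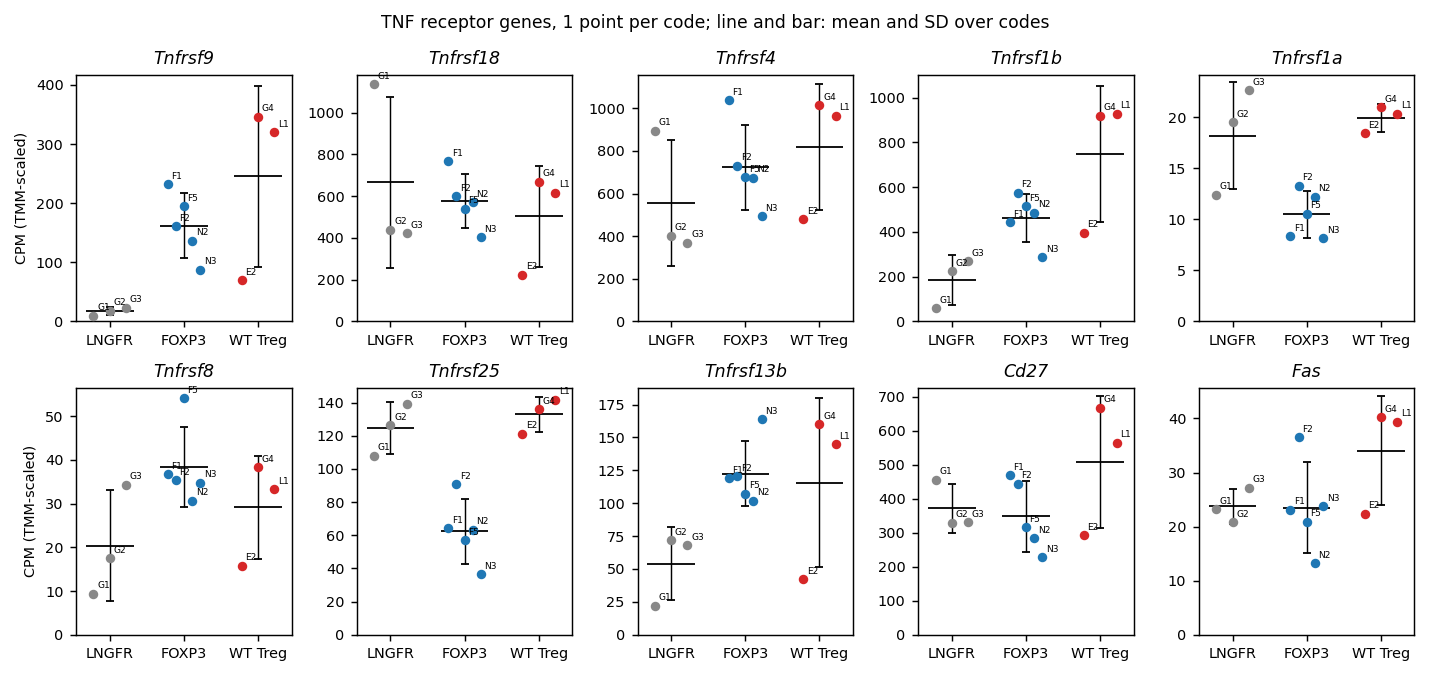
CPM (TMM-scaled) of each of the 10 receptor genes, 1 point per code in LNGFR, FOXP3 and WT Treg, with the mean as a line and the SD as a bar. Tnfrsf9 lies at 9.75 to 23.1 in LNGFR against 87.3 to 232 in FOXP3, Tnfrsf25 is lower in every FOXP3 code than in all others, and E2 is the lowest WT Treg code for all 10 genes.

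Set against all genes, 1 of the 10 receptors was called higher and none lower in FOXP3 against LNGFR, where 0.168% of tested genes were called higher and 0.375% lower. The codes did not overlap for 3 receptors that were higher (Tnfrsf9, Tnfrsf1b and Tnfrsf13b) and 1 that was lower (Tnfrsf25), against 4.35% and 4.67% of all genes. An unadjusted p under 0.05 in edgeR was reached by 6 of the 10 receptors and by 10.3% of all genes tested. In WT Treg against LNGFR 1 was called higher and none lower (background 0.627% and 0.673%). The codes did not overlap for 2 higher, Tnfrsf9 and Tnfrsf1b, and none lower (7.80% and 8.82%), and 3 of the 10 had an unadjusted p under 0.05 (14.8% of all genes). In FOXP3 against WT Treg none was called in either direction (0.136% higher and 0.123% lower), with 2 of the 10 at an unadjusted p under 0.05 (16.5% of all genes). Both of these, Tnfrsf1a and Tnfrsf25, were lower in every FOXP3 code, and no receptor was higher in every FOXP3 code (6.25% and 6.12% of all genes). With 10 genes, these counts are small.

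The median log2 fold change of the 10 receptors was 0.18 for FOXP3 over LNGFR (all genes tested, -0.02). It was 0.55 for WT Treg over LNGFR (all genes, 0.08) and -0.56 for FOXP3 over WT Treg (all genes, 0.01). The 6 costimulatory receptors without a death domain (Tnfrsf9, Tnfrsf18, Tnfrsf4, Tnfrsf1b, Tnfrsf8 and Cd27) had medians of 0.63, 0.56 and -0.37 in the same order. The 3 death-domain receptors (Tnfrsf1a, Fas and Tnfrsf25) had medians of -0.80, 0.13 and -0.93, and none of the 3 was called. Each of these medians is the value of Tnfrsf1a alone, the middle of the 3. Fas stood at -0.01, 0.56 and -0.57 in the same order.

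**Figure D3:**
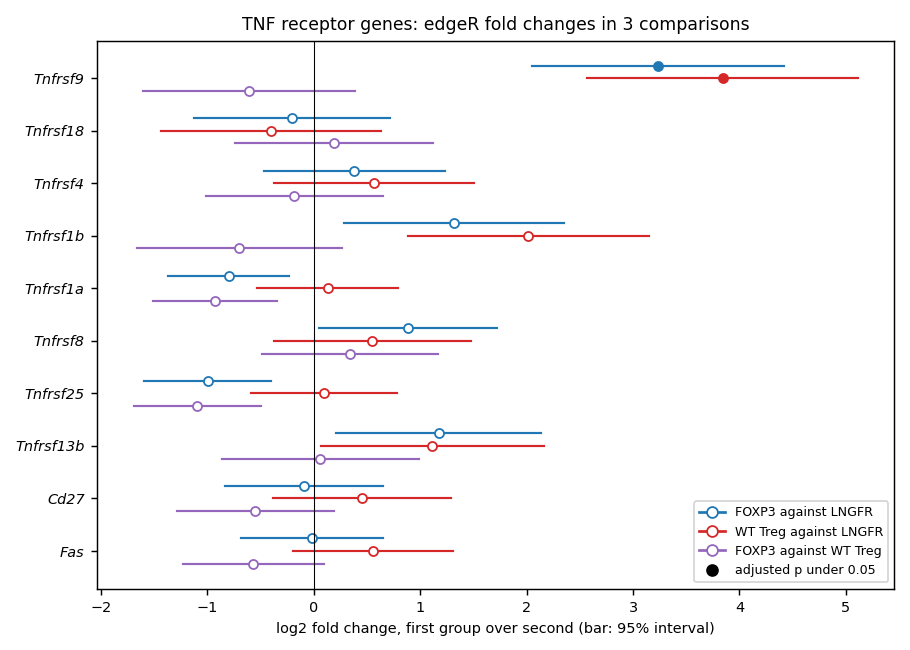
The edgeR log2 fold change of each receptor gene with its 95% interval in the comparisons of FOXP3 with LNGFR, of WT Treg with LNGFR and of FOXP3 with WT Treg. Filled points mark an adjusted p under 0.05, reached by Tnfrsf9 at 3.23 and 3.84 and by no other point.

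The counts of called receptors rested on the test used. In FOXP3 against LNGFR, DESeq2 called 2 of the 10 (2.65% of all genes, either direction), Tnfrsf9 and Tnfrsf25. limma voom with quality weights called 5 (6.78%), these 2 with Tnfrsf4, Tnfrsf1b and Tnfrsf1a, and voom with every library as its own row called 4 (3.79%), Tnfrsf9, Tnfrsf1b, Tnfrsf25 and Tnfrsf13b. In WT Treg against LNGFR, DESeq2 called 2 (4.95%), Tnfrsf9 and Tnfrsf1b, voom 4 (5.61%), adding Tnfrsf4 and Tnfrsf13b, and voom with every library 3 (4.34%), adding Tnfrsf13b alone. In FOXP3 against WT Treg, DESeq2 (7.19%) and voom (6.89%) each called Tnfrsf1a and Tnfrsf25, and voom with every library (3.10%) called Tnfrsf25.

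The counts also rested on the libraries used. Without the 3 shallow libraries edgeR called 1 receptor in FOXP3 against LNGFR (1.63% of all genes), 2 in WT Treg against LNGFR (2.07%), Tnfrsf9 and Tnfrsf1b, and none in FOXP3 against WT Treg (0.430%). With E2, G1 and N3 left out as whole codes (4 FOXP3, 2 LNGFR and 2 WT Treg codes remain), 7 were called in FOXP3 against LNGFR (10.7% of all genes). They were Tnfrsf9, Tnfrsf18, Tnfrsf4, Tnfrsf1b and Tnfrsf13b, higher, and Tnfrsf1a and Tnfrsf25, lower. In WT Treg against LNGFR 6 were then called (7.66%), all higher: Tnfrsf9, Tnfrsf18, Tnfrsf4, Tnfrsf1b, Tnfrsf13b and Cd27. In FOXP3 against WT Treg 6 were called (7.42%), all lower: Tnfrsf9, Tnfrsf1b, Tnfrsf1a, Tnfrsf25, Tnfrsf13b and Cd27. Which codes to leave out was known from earlier results of these data.

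Per length of exon, which allows levels of different genes to be compared, the order in FOXP3 was led by Tnfrsf4 at 530 ± 145 CPM per kb (SD, n = 5), followed by Tnfrsf18 at 378 ± 85.7. Tnfrsf4 was above Tnfrsf18 in all 5 codes. Next were Cd27 at 149.8 ± 44.8 and Tnfrsf1b at 121 ± 28.4, which changed places in 1 code, then Tnfrsf9 at 59.6 ± 20.3 and Tnfrsf13b at 43.2 ± 8.61, which also changed places in 1 code. Tnfrsf25 stood at 27.4 ± 8.52 and held rank 7 in every code. Fas (11.4 ± 4.06) and Tnfrsf8 (11.1 ± 2.64) were not separated, and Tnfrsf1a was last in all codes at 4.06 ± 0.89.

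In LNGFR the order was Tnfrsf18 (437 ± 268 CPM per kb, n = 3), Tnfrsf4 (407 ± 216), Cd27 (160.0 ± 31.2), Tnfrsf25 (54.7 ± 6.89), Tnfrsf1b (48.4 ± 29.2), Tnfrsf13b (19.1 ± 9.74), Fas (11.5 ± 1.57), Tnfrsf1a (7.03 ± 2.02), Tnfrsf9 (6.26 ± 2.49) and Tnfrsf8 (5.89 ± 3.67). Tnfrsf25 was above Tnfrsf1b in G1 only, so their order of means rests on that code. Neighbours in the pairs Tnfrsf18 and Tnfrsf4, Tnfrsf13b and Fas, and Tnfrsf9 and Tnfrsf8 each changed places in 1 of 3 codes. By rank of the mean, Tnfrsf9 was number 5 in FOXP3 and number 9 in LNGFR (number 9 or 10 in each LNGFR code). In WT Treg Tnfrsf4 led at 601 ± 216, with Tnfrsf18 at 330 ± 160, Cd27 at 219 ± 83.5, Tnfrsf1b at 196 ± 79.9, Tnfrsf9 at 90.2 ± 56.1, Tnfrsf25 at 58.4 ± 4.66, Tnfrsf13b at 40.8 ± 22.6 and Fas at 16.5 ± 4.90. Tnfrsf8 (8.42 ± 3.42) and Tnfrsf1a (7.70 ± 0.52) were last. This pair, Cd27 with Tnfrsf1b, and Tnfrsf9 with Tnfrsf25 each changed places in 1 of 3 codes.

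As a share of the 10 genes together, Tnfrsf9 made up 4.39% ± 0.82 in FOXP3, 0.64% ± 0.39 in LNGFR and 5.24% ± 1.91 in WT Treg (SD over codes). Tnfrsf1b made up 9.15% ± 1.74, 5.17% ± 3.75 and 12.5% ± 0.50. Tnfrsf18 made up 28.4% ± 1.05 in FOXP3, 35.9% ± 7.17 in LNGFR and 20.4% ± 2.59 in WT Treg, and the groups did not overlap (27.3% to 29.9% in FOXP3, at least 31.3% in LNGFR, at least 17.4% and at most 22.05% in WT Treg). Shares of a sum are tied to each other, since a larger share of 1 gene leaves less for the rest.

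**Figure D4:**
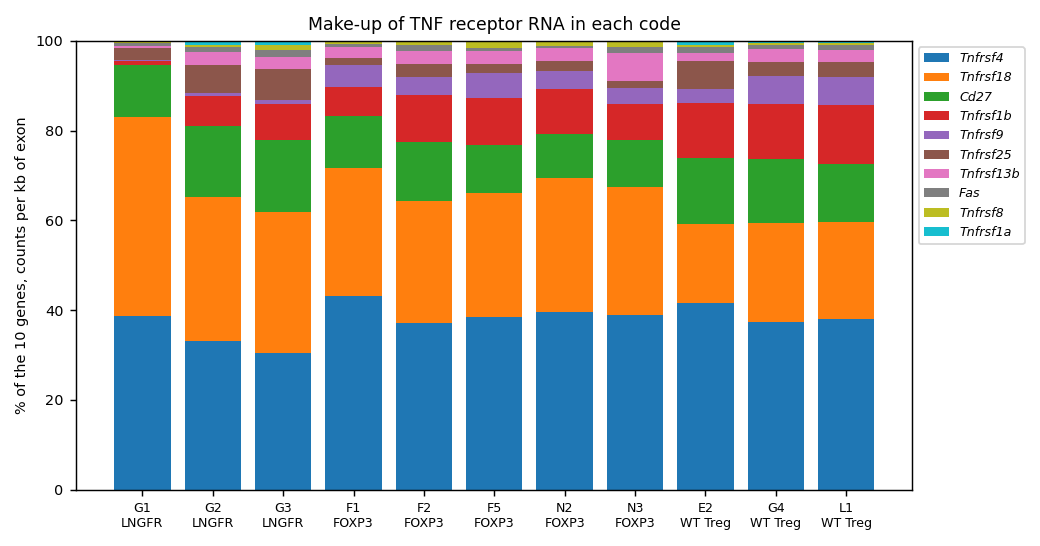
Share of each receptor gene in the sum of the 10, in percent of counts per kb of exon, 1 stacked bar per code. Tnfrsf4 and Tnfrsf18 fill the largest part of every bar, and the Tnfrsf9 segment is at most 0.96% in the 3 LNGFR codes and at least 3.04% in the other 8.

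Of 11 ligands of these receptors, 7 were abundant enough to test, and 1 was called, in all 3 comparisons. Of all genes, 0.375% were called lower in FOXP3 against LNGFR and 0.673% lower in WT Treg against LNGFR. In FOXP3 against WT Treg 0.136% were called higher. Tnfsf8, the ligand of CD30, stood at 269.7 to 342 CPM in LNGFR, 52.2 to 89.0 in FOXP3 and 16.2 to 23.7 in WT Treg, with no overlap between groups. It fell by 2.10 on the log2 scale in FOXP3 against LNGFR (SE 0.25, adjusted p = 0.00181) and fell by 3.96 between LNGFR and WT Treg (SE 0.32, adjusted p = 0.000198). It was 1.86 ± 0.28 higher in FOXP3 than in WT Treg (adjusted p = 0.0154). Its receptor Tnfrsf8 did not pass the test in any comparison. Tnf, Lta, Tnfsf9, Tnfsf13b, Cd70 and Fasl were tested and not called. For the 4-1BB ligand Tnfsf9 the FOXP3 against LNGFR difference was -0.41 ± 0.40 (adjusted p = 0.749). Tnfsf18, Tnfsf4, Tnfsf15 and Tnfsf13 had too few reads (3 to 76 over all codes).

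Of 18 further superfamily genes, such as Tnfrsf14, Cd40 and Relt, 10 were tested and none was called in any comparison, with 0, 0 and 1 of them at an unadjusted p under 0.05 in edgeR in the 3 comparisons in the order above (10.3%, 14.8% and 16.5% of all genes). Their medians were 0.14, -0.03 and 0.02. None of 20 TRAF adaptors and proximal signalling genes was called, with 2, 1 and 1 of 20 at an unadjusted p under 0.05, no larger a share than among all genes, and medians of 0.27, 0.32 and -0.01. In FOXP3 against LNGFR 18 of the 20 had log2 values above 0, against 48.9% of all genes tested. In most of them 1 LNGFR code, G1, lay far below the group median. Such genes were Traf2 (24.5 CPM, group median 107), Birc2 (12.8, median 94.0), Tank (25.9, median 95.9) and Rnf31 (34.6, median 116). Others had no such low code, such as Fadd (lowest 27.1, median 28.6) and Tradd (39.3, median 41.7). Their log2 values in FOXP3 against LNGFR were 0.07 and 0.33. The part of such low codes in the lean was not tested.

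Of 18 NF-kB subunits and feedback genes, Nfkb1, which encodes the p105 precursor of p50, was lower in WT Treg than in LNGFR. It stood at 344, 534 and 632 CPM in G1, G2 and G3 and at 146, 168 and 191 CPM in E2, G4 and L1, a log2 fold change of -1.58 ± 0.33 (adjusted p = 0.0310). Of all genes, 0.673% were called lower in that comparison. FOXP3 codes held 365 to 554 CPM of Nfkb1, within the LNGFR range and above every WT Treg code. FOXP3 against WT Treg gave 1.44 ± 0.30 and was not called (edgeR adjusted p = 0.0714). No other gene of the list was called in any comparison. In the 3 comparisons 1, 4 and 4 of the 18 had an unadjusted p under 0.05 (all genes 10.3%, 14.8% and 16.5%). The 6 genes of receptor shedding and modulation, such as Adam17 and Adam10, were not called either, with 0, 1 and 1 of 6 at an unadjusted p under 0.05 (all genes 10.3%, 14.8% and 16.5%).

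The genes nearest to Tnfrsf9 in pattern were found from the root-mean-square distance of centred log2 CPM over the 11 codes, among 8682 genes with a median distance of 1.62. They were Pcyt1b (0.69), Hbs1l (0.69) and Gpr15 (0.72), beside an SD of 1.75 for Tnfrsf9 itself. Gpr15, a homing receptor of T cells, stood at 55.9 ± 24.3 CPM in FOXP3 (SD, n = 5), 4.63 ± 2.55 in LNGFR (n = 3) and 25.2 ± 12.2 in WT Treg (n = 3). Hbs1l stood at 176 ± 43.8, 41.0 ± 18.7 and 163 ± 66.0 CPM. All 3 were picked for this likeness, so their levels are given with no test.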

How the data were processed

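The authors deposited read counts per gene, unnormalized, for 22 Smart-seq libraries. Tools named in the submitters' processing notes are featureCounts, Subread (2.0.0) and STAR (2.7.3a), with the GRCm38 (mm10) build. No source used here states the annotation or the strand setting. Per the labels' protocols, libraries were made with 18 cycles of PCR and sequenced as pairs of 38 bp reads, with no molecular identifier mentioned, so PCR copies may be counted.

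Groups came from the titles, and both libraries of a code were summed. The main test was edgeR 4.0.16 (R 4.3.3): TMM scaling, filterByExpr, a robust quasi-likelihood fit of all 3 groups and Benjamini-Hochberg adjustment over 15462 genes, called at 0.05. The common biological coefficient of variation was 0.491. The SE is the absolute log2 fold change divided by the square root of F, and intervals are 95%. CPM use the TMM-scaled library, and levels per kb use the union of GENCODE M21 exons. Ratios added 0.5 counts per gene. DESeq2 1.42.0, limma 3.58.1, other filters and left-out libraries served as alternatives. In limma voom with every library as its own row, libraries of the same code were modelled as correlated.

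Named genes were the 10 receptors, called genes of 5 related lists (at most 6 per list and comparison), and the 3 genes nearest to any called receptor. The receptors, lists, tests and left-out libraries were chosen with earlier results of these data known. The human FOXP3 transgene was not analysed here.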

Additional observations from a re-analysis of the deposited data

Results flagged for a closer look

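Tnfrsf8, the gene of CD30, stood at 54.1 CPM in FOXP3 code F5, apart from the other 4 FOXP3 codes at 30.6 to 36.8 CPM. Its gap to the nearest code, divided by the range of the group, was 0.739, above Dixon's 95% critical value for 5 values. It was the 1 value so marked among 12 groups of codes tested, a rule by which chance marks about 1 in 20 groups. All 12 were groups of the 5 FOXP3 codes, for the 10 receptors, mouse Foxp3 and the ratio of Tnfrsf1b to Tnfrsf1a. The LNGFR and WT Treg groups, of 3 codes each, were not tested by this rule. Codes such as G1 and E2 were therefore not open to marking.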

How the results depend on the processing

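The Tnfrsf9 log2 value stayed positive in all 20 alternatives of both comparisons with LNGFR (2.97 to 3.59 for FOXP3, 3.47 to 4.28 for WT Treg). It lost its call only in fits that left out 1 code: 7 for FOXP3 (F1, F2, F5, G1, G2, G3 or L1) and 2 for WT Treg (G2 or L1). How many receptors passed depended strongly on the test and on the libraries. Below, the comparisons are A (FOXP3 against LNGFR), B (WT Treg against LNGFR) and C (FOXP3 against WT Treg), and the cause of a change was not tested unless stated.

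DESeq2 called 2, 2 and 2 receptors in A, B and C, and 410, 766 and 1111 of all genes. limma voom with quality weights called 5, 4 and 2 receptors and 1048, 867 and 1066 genes. With every library as its own row the counts were 4, 3 and 1 receptors and 472, 540 and 386 genes. Without the 3 shallow libraries they were 1, 2 and 0 receptors and 250, 318 and 66 genes, and without E2, G1 and N3 7, 6 and 6 receptors and 1565, 1125 and 1090 genes. The receptor counts of 1, 1 and 0 did not change with DESeq2 size factors, no filter, the fit of only 2 groups or the removal of the Gm10800 family. All-gene counts did: 329, 1000 and 3615 with no filter (which moved the median of all genes to -0.22, 0.18 and -0.42), 184, 58 and 135 with only 2 groups, and 63 in C with DESeq2 size factors, against 84, 201 and 40 in the main analysis.

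Leaving out each code in turn gave 0 to 1 receptors in A, 0 to 2 in B and 0 in C, and 14 (without G2) to 273 (without N3), 37 (without L1) to 299 (without E2) and 4 (without L1) to 1230 (without G4) genes. In A the log2 values then ran from -0.32 to 0.42 for Tnfrsf18, -0.22 to 0.080 for Cd27 and -0.24 to 0.20 for Fas. In B they ran from -0.59 to 0.22 for Tnfrsf18, -0.082 to 0.34 for Tnfrsf1a and -0.017 to 0.21 for Tnfrsf25. In C they ran from -0.16 to 0.57 for Tnfrsf18, -0.45 to 0.14 for Tnfrsf4 and -0.32 to 0.47 for Tnfrsf13b.

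Signs also turned under other settings, always for genes not called with all libraries. Tnfrsf18 in A went to 0.080 (no filter), 0.37 (voom), 0.77 (every library) and 0.52 (without E2, G1 and N3), and in B to 0.34, 0.36 and 0.58 under the last 3 of these. Cd27 in A went to 0.11, 0.076, 0.31 and 0.19 under the same 4 settings. Fas in A went to 0.14 (no filter) and 0.0054 (without the Gm10800 family), and Tnfrsf1a in B to -0.0061 (voom) and -0.026 (without E2, G1 and N3). In C, Tnfrsf18 went to -0.16 and -0.061 and Tnfrsf13b to -0.32 and -0.45 without the shallow libraries and without the 3 codes, and Tnfrsf13b to -0.28 with voom. The difference in the log2 ratio of Tnfrsf1b to Tnfrsf1a in C was -0.039 without E2 and without the shallow libraries, and -0.039 to 0.52 over the fits that left out 1 code. The ratio differences in A (1.89 to 2.56) and B (1.56 to 2.37) kept their sign in all 13 alternatives.

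No paired analysis was possible because code names differ between groups. Depth limited E2 (1154626 counts) and G1 (3109515) most. Intervals and counts cover these samples only, and PCR copies are not independent molecules.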
